A study of Mus musculus with 21 samples.

Results

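The matrix metalloproteinases, the ADAMTS proteases and their tissue inhibitors were followed in colon RNA of germ-free (GF) mice. Non-control array probes were taken by gene names that consist of Mmp, Timp or Adamts and a number, and each gene is represented by its brightest probe of the day. Described here are 44 such genes (22 *Mmp*, 4 *Timp* and 18 *Adamts*), not the complete families, among 43547 gene names, with 88 of 56605 probes on the array design used at day 0 and 63 of 55681 probes on the design used at day 7. The genes were chosen by name and not by a measured value, but with earlier results of these data known.

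The mice were germ-free male C57BL/6J animals, which carry no microorganisms and were bred in isolators. Each array holds total RNA of the whole colon of 1 sample, labelled either GF *Card9*-/- (mice labelled as lacking Card9, an adaptor protein of fungal recognition receptors in myeloid cells) or GF WT. At day 0, before any dextran sulfate sodium (DSS, a detergent-like polymer that injures the colon epithelium), there were 7 arrays with the first label and 6 with the second. At day 7, after 7 days of 2% DSS in the drinking water, there were 4 of each. Ages were not given for these mice in the sources used here, and the labels limit the deletion to no cell type. The days lie on different array designs, so a change of level from day 0 to day 7 cannot be told apart from a change of design. Levels were therefore analyzed within each day, and between the days only the label differences were compared.

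*Card9* itself went against the labels. At day 0 its brighter probe read 8.71 to 9.24 on the log2 scale on the arrays labelled GF *Card9*-/- and 2.30 to 2.33 on those labelled GF WT, where none of the 6 arrays had it well above background. At day 7 all 4 arrays labelled GF *Card9*-/- and 1 of 4 labelled GF WT had it well above background. What the probes measure of the deleted gene is not given in the sources used here. Groups are therefore called by their deposited label, and each direction below is a direction between labels.

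Matrix metalloproteinases are zinc enzymes that are secreted, or anchored to the cell surface, as inactive precursors and cut collagens, proteoglycans and one another. ADAMTS enzymes are secreted relatives that cut proteoglycans such as versican and aggrecan or trim procollagens. The TIMP proteins bind the active site of these enzymes and block it. In the intestine the enzymes are made mostly by fibroblasts, smooth muscle and leukocytes, some by epithelial cells, and several are known to be induced at ulcers.

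*Mmp3*, *Mmp10*, *Mmp13* and several other members are neighbours on chromosome 9, and *Mmp3*, *Mmp10* and *Mmp13* moved together across the arrays as described below, so their promoter sequences are shown first, with *Timp2* of chromosome 11 as a member outside that cluster. RefSeq windows of 300 bases (250 before and 50 after the annotated start, assembly GRCm38.p6, written along the gene's strand) were given for 30 of the 44 members. Capitals mark TGANTCA, the letters that AP-1 (the Fos and Jun family of transcription factors) is known to bind.

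Mmp3 promoter, chr9:7445572-7445871, plus strand: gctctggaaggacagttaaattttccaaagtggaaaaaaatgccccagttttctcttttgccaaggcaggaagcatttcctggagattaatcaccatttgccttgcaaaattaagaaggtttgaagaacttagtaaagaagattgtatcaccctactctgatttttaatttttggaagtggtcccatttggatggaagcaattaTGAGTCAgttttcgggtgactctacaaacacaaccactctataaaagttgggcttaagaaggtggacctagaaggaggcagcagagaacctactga
Mmp10 promoter, chr9:7502092-7502391, plus strand: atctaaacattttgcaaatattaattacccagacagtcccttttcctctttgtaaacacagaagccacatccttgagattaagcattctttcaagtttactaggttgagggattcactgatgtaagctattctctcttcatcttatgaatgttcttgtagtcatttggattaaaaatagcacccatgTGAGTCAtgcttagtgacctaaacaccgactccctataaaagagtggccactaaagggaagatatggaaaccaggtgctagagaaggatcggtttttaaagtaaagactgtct
Mmp13 promoter, chr9:7272264-7272563, plus strand: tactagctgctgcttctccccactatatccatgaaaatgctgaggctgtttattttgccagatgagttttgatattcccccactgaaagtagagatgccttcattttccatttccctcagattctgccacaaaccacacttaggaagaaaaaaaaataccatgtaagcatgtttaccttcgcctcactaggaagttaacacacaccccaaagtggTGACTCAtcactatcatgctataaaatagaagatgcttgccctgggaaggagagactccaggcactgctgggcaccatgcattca
Timp2 promoter, chr11:118355362-118355661, minus strand: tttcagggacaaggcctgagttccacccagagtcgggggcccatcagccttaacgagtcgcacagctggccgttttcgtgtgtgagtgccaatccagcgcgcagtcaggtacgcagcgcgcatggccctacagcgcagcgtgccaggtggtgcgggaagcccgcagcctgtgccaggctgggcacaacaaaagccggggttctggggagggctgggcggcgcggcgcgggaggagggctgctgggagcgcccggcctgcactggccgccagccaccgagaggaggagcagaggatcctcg

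TGANTCA, which reads the same on both strands, stood in 8 of 33 member windows, and all 8 belong to the chromosome 9 cluster: *Mmp13*, *Mmp12*, *Mmp1b*, *Mmp3*, *Mmp1a*, *Mmp10*, *Mmp20* and *Mmp7*. It was in 8 of 11 windows of the 9 cluster genes with a window, and in 0 of 22 windows of the other members. Among all 32851 windows 7.81% held it. Each of the 8 windows also held TATAAA, the letters of the TATA box, on the gene's strand, starting 19 to 48 bases after the start of TGANTCA. Both motifs together were in 0.995% of all windows, TATAAA on the gene's strand in 8.32% and on either strand in 13.6%. In *Mmp3* the TGANTCA match began 46 bases before the annotated start, in *Mmp10* 63 bases and in *Mmp13* 35 bases before it. The *Timp1* window held no TGANTCA, and *Timp1* moved with *Mmp3*, *Mmp10* and *Mmp13* across the arrays as described below. *Mmp12*, *Mmp1b*, *Mmp1a* and *Mmp20* held it and were well above background on no array of either day. A match describes letters only, and binding was not measured. The part of the motif in the signals was not tested.

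**Figure D1:**
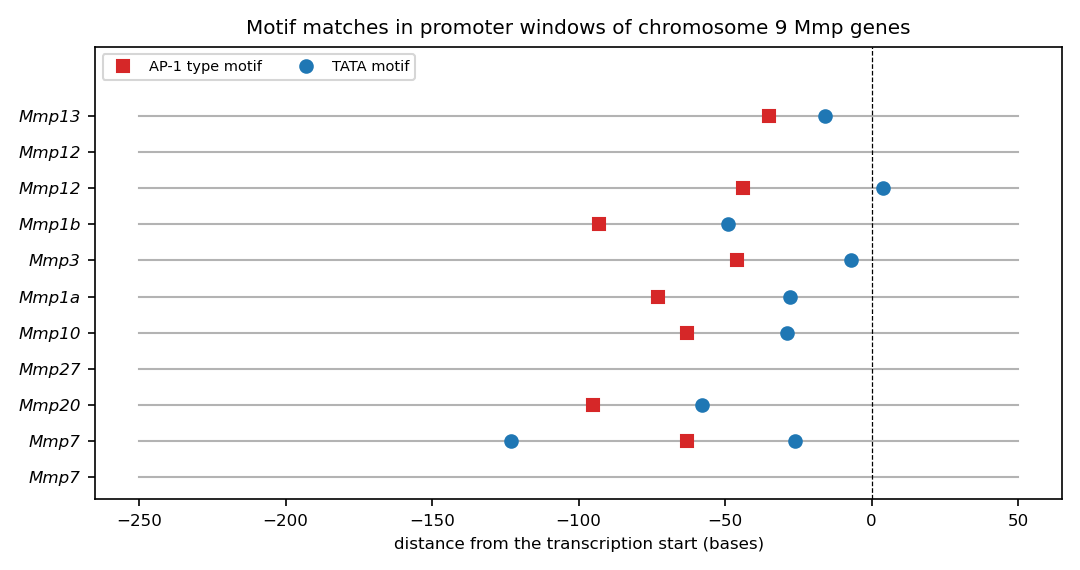
Matches of TGANTCA (red squares) and TATAAA on the gene's strand (blue circles) in the RefSeq promoter windows of the *Mmp* genes on chromosome 9, 1 line per window in chromosome order, against the distance in bases from the annotated transcription start (dashed line). In the 8 windows with a red square, a blue circle follows it 19 to 48 bases later, and *Mmp12* and *Mmp7* each have another window with neither.

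The probes of the cluster did not resemble each other. The longest run of letters that the 60-base probes of *Mmp3* and *Mmp10* share was 5 bases, and that of *Mmp3* and *Mmp13* 6 bases. Over all pairs of members it was at most 10 bases at either day. On the NCBI37 build of the deposited annotation, the *Mmp3* probe lies at chr9:7455751-7455810, the *Mmp10* probe at chr9:7510011-7510070 and the *Mmp13* probe at chr9:7282762-7282821. Exon or UTR positions were not part of that annotation.

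At day 0, 24 of the 44 members were well above background on every array, 29 on at least 50% of the arrays and 9 on no array. At day 7 these were 18, 24 and 16. The members on no array at day 0 include *Mmp12*, the macrophage elastase, both interstitial collagenases *Mmp1a* and *Mmp1b*, and *Mmp20*, the enamel protease. *Mmp9*, the gelatinase of neutrophils, was well above background on 2 of 13 arrays at day 0 and on none of 8 at day 7. *Mmp7*, the matrilysin of intestinal epithelium, was well above background on 13 of 13 arrays at day 0 and on 0 of 8 at day 7, and a probe that both designs carry gave the same counts. Day and design cannot be told apart there. Percentages of spots well above background ran from 54.5% to 64.9% per array at day 0 and from 42.2% to 57.1% at day 7. Precision is limited by how many arrays there are.

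At day 0 most members went up and down together from array to array, whatever the label. On 3 arrays labelled GF *Card9*-/- (5, 6 and 7) and 2 labelled GF WT (5 and 6), between 22 and 24 of the 29 brighter members lay below their mean over the day. On GF *Card9*-/- 1 and 4 and on GF WT 1 to 4, 23 to 25 of 29 lay above it. The median deviation was lowest on GF *Card9*-/- 5 with -0.99 and on GF WT 5 with -0.94 (log2), and highest on GF WT 1 with 0.94. GF *Card9*-/- 3 had 23 of 29 below the mean by a median of only -0.17.

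**Figure D2:**
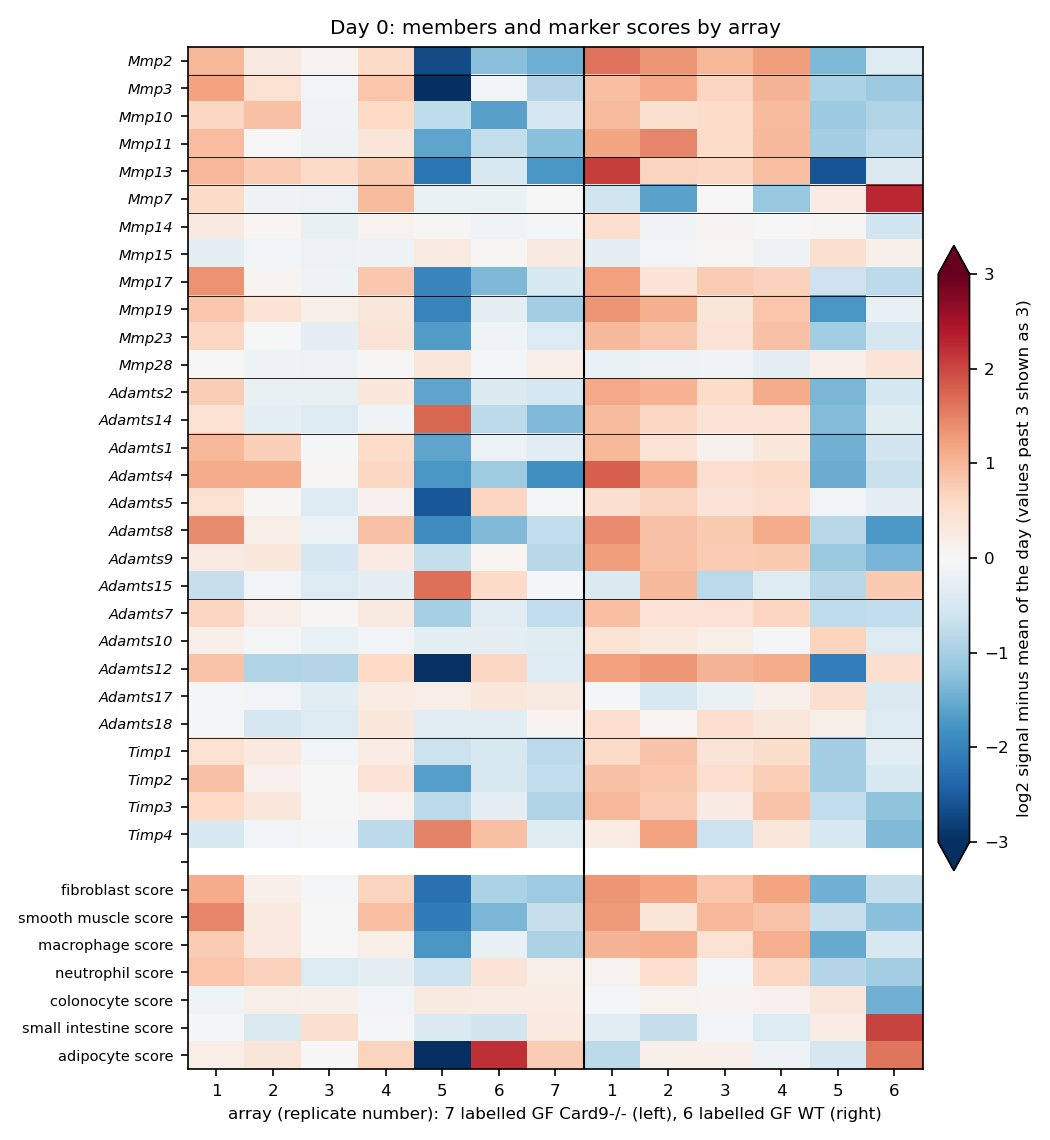
Colour gives the log2 normalized signal of each of the 29 brighter members minus its mean over the 13 arrays of day 0 (values past 3 shown as 3), with members in rows grouped by role, arrays in columns, and the mean deviation of 7 marker lists below. Most rows are blue on GF *Card9*-/- 5, 6 and 7 and on GF WT 5 and 6, as are the fibroblast, smooth muscle and macrophage rows.

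Stromal markers moved on the same arrays. The fibroblast score (the mean deviation of 8 markers such as *Pdgfra*, *Dcn* and *Col1a1*, all 8 well above background on every array) was -2.25 on GF *Card9*-/- 5, -1.44 on GF WT 5, -1.06 on GF *Card9*-/- 7, -0.95 on GF *Card9*-/- 6 and -0.72 on GF WT 6. It lay between -0.03 and 1.32 on the other 8 arrays. Its summed processed signal ran from 18540 to 158000 on arrays labelled GF *Card9*-/- and from 19890 to 181100 on those labelled GF WT. All 8 fibroblast, all 8 smooth muscle and all 8 macrophage markers were lower on average in the arrays labelled GF *Card9*-/-, with 0 called. Their part in the members' values was not tested beyond a fit with the fibroblast score, added after seeing the data and given below. In bulk tissue, fewer cells of a type and less RNA per cell cannot be told apart.

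The gelatinase *Mmp2*, which cuts denatured and basement membrane collagen, spread widely. Its log2 signal had a lowest value of 7.35, a median of 10.13 and a highest value of 11.02 on the arrays labelled GF *Card9*-/-, and 8.68, 11.16 and 11.65 on those labelled GF WT. The labels overlapped over most of their range, and the 5 lowest values were on the 5 arrays with the lowest fibroblast scores. The label difference of -1.07 (SE 0.67) was the largest of any brighter member at day 0, with an adjusted p of 0.912 in limma. Within the scan sessions it was -0.89 and -1.21, and within the 4 slides -3.07, 0.20, -0.34 and -1.56. Without the slide of GF WT 6 it was -0.67. *Mmp14*, the membrane-type enzyme known to activate pro-MMP2 at the cell surface, did not spread: it lay between 8.61 and 9.09 in one label and between 8.25 and 9.34 in the other, with a label difference of 0.02 (SE 0.14).

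*Mmp3* and *Mmp10*, stromelysins that cut proteoglycans and activate other precursors, were near the detection limit at day 0. *Mmp3* had values of 2.51, 5.54 and 6.82 (lowest, median, highest) on the arrays labelled GF *Card9*-/- and 4.53, 6.39 and 6.75 on those labelled GF WT, and was well above background on 9 of 13 arrays. *Mmp10* had 3.44, 4.97 and 5.95 against 3.99, 5.59 and 6.03. Both differed between labels by less than their spread, by -0.52 (SE 0.67) and -0.28 (SE 0.48). Single arrays carried these values, since *Mmp3* was -0.0428 without GF *Card9*-/- 5 and *Mmp10* -0.0295 without GF *Card9*-/- 6. *Mmp11*, stromelysin 3 of fibroblasts, lay between 6.00 and 8.50 against 6.57 to 9.05, a difference of -0.74 (SE 0.51). *Mmp13*, the main interstitial collagenase of mice, ran from 2.86 to 6.02 and from 2.42 to 7.09, and had the highest within-label SD of the brighter members, 1.44. *Mmp12* and *Mmp9* give no fold at day 0, since they were at background on nearly all arrays.

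*Mmp7* followed another pattern. Its values on the arrays labelled GF *Card9*-/- were 7.08, 7.11 and 8.22 (lowest, median, highest) and on those labelled GF WT 5.68, 6.99 and 9.55, a label difference of 0.25 (SE 0.52). The highest value, 9.55, came from GF WT 6, on which most other members were low. That array had the highest small intestine score (2.03, against -0.71 to 0.47 on the other 12 arrays) and the lowest colonocyte score (-1.44, against -0.13 to 0.34). The part of small intestine RNA in the *Mmp7* value was not tested. Without that array the label difference was 0.73.

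Of the inhibitors, *Timp2*, which also helps MMP14 to activate pro-MMP2, ran from 12.73 to 15.28 on the arrays labelled GF *Card9*-/- and from 13.37 to 15.27 on those labelled GF WT (difference -0.45, SE 0.43). *Timp1*, the inducible inhibitor, ran from 8.03 to 9.27 and from 7.80 to 9.67 (difference -0.31, SE 0.32). *Timp3*, which binds to the matrix, ran from 11.39 to 12.88 and from 11.09 to 13.29 (difference -0.29, SE 0.39). Without 1 array or slide the difference ran from -0.70 to -0.20 for *Timp2*, from -0.54 to -0.17 for *Timp1* and from -0.56 to -0.12 for *Timp3*. *Timp4* was the exception with 7.03 to 9.30 and 6.50 to 9.02 (difference 0.20, SE 0.45, but -0.49 and 0.83 within the scan sessions), and its highest value was on GF *Card9*-/- 5, the array lowest in fibroblast markers. That array also had the highest *Adamts14* value, 8.84, the highest *Adamts15* value, 10.13 against 7.64 to 9.44 on the others, and an adipocyte score of -4.69. The adipocyte score of the other arrays was -0.78 or higher, and its part in these values was not tested.

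Among the proteoglycan-cleaving ADAMTS, *Adamts1* and *Adamts4* had their 5 lowest values on the same 5 arrays as *Mmp2*. *Adamts4* had 5.81, 7.68 and 8.77 on the arrays labelled GF *Card9*-/- and 6.16, 8.20 and 9.44 on those labelled GF WT, with a difference of -0.54 (SE 0.66). That difference was -0.25 without GF WT 1 and -0.90 without GF WT 5. *Adamts1* differed by 0.03 (SE 0.45), and *Adamts5* by -0.51 (SE 0.44), of which GF *Card9*-/- 5 carried most: without that array it was -0.13. *Adamts12* differed by -0.94 (SE 0.69) with 2.41 to 6.22 against 3.29 to 6.67. Of the 13 arrays, 9 had it well above background. The procollagen-trimming *Adamts2* differed by -0.60 (SE 0.47).

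The question of the day 0 comparison was whether the genotype label goes with a different set of matrix proteases before injury. None of the 41 members tested was called (adjusted p under 0.05 in limma over 47410 probes, of which 0.0253% were called). By the brightest probes the lowest adjusted p was 0.833, of *Adamts10*. It also was the single member with an unadjusted p under 0.05 (-0.35, SE 0.15, unadjusted p = 0.043 in limma). Another *Adamts10* probe, well above background on 10 of 13 arrays, gave -0.0054 (SE 0.47). Dimmer probes of *Adamts10* and *Adamts17* had an adjusted p of 0.676 in limma. The single member is 2.44% of the members, where 5.84% of all probes had such a p. These shares are of unlike units, since each member is counted by 1 probe. Dimmer probes of *Adamts10*, *Adamts17* and *Mmp19* also had such a p. No member had labels that did not overlap, where 0.458% of all probes did. The sign was uneven: 29 of 41 members were lower in the arrays labelled GF *Card9*-/- and 12 higher, 70.7% lower against 43% of all probes (57% of which were higher). The median difference was -0.34 over the members and 0.02 over all probes. At least 1.5-fold lower were 6 members (*Mmp2*, *Adamts12*, *Mmp11*, *Adamts2*, and the dimmer *Adamts19* and *Adamts6*) and none was 1.5-fold higher, where 3.46% and 1.97% of all probes were. *Adamts6* was well above background on 1 of 13 arrays, so its fitted difference is no measure of a fold, and *Adamts19* on 5. Without 1 array or slide *Adamts12* ran from -1.46 to -0.52. By its brightest probe, no member had both an unadjusted p under 0.05 and a 1.5-fold difference, where 1.17% of all probes did. Dimmer probes of *Adamts17*, *Adamts10* and *Mmp19* had both, with -1.06, -0.61 and -0.63 (unadjusted p = 0.015, 0.015 and 0.041 in limma), and none was called. They were well above background on 11, 0 and 2 of 13 arrays. The brightest *Adamts17* probe gave 0.17. The median was 0.0065 when the fibroblast score of each array entered the fit, and -0.18 without GF *Card9*-/- 5. Within the scan sessions it was -0.43 and -0.23, and within the 4 slides -1.40, 0.0020, -0.03 and -0.24, farthest from 0 on the slide with 1 array of each label.

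Most brighter members varied more within a label than the median gene, as did stromal markers. Over the 29 brighter members the SD within a label had a median of 0.85 on the log2 scale, against 0.22 over 21771 genes well above background on as many arrays. The same median was 1.13 over 8 fibroblast, 1.16 over 8 smooth muscle and 0.93 over 8 macrophage markers, so a spread of this size was not particular to the members. The exceptions were *Mmp28*, *Mmp15*, *Mmp14*, *Adamts10*, *Adamts17* and *Adamts18*, with SDs of 0.22 to 0.32, and the next member, *Timp1*, had 0.60. Within-label spread of that size was also present at day 7, with a median of 0.81 over 24 members against 0.32 over 19951 genes, 0.68 over 8 fibroblast and 0.97 over 8 smooth muscle markers.

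**Figure D3:**
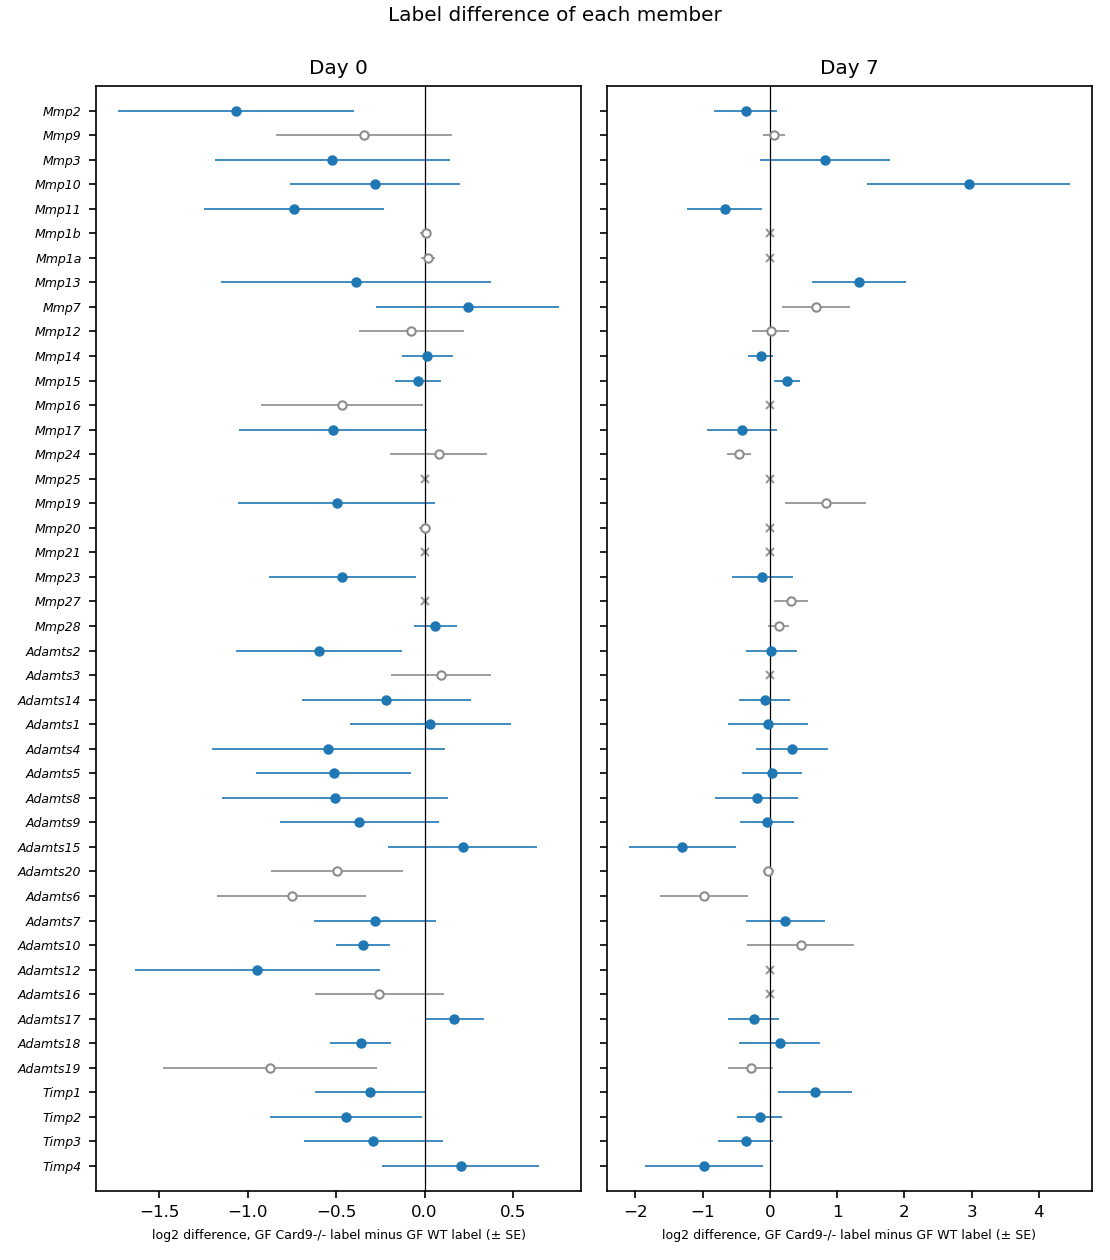
Difference in log2 normalized signal between the arrays labelled GF *Card9*-/- and those labelled GF WT for each of the 44 members (points) with its standard error from limma (bars), at day 0 (7 and 6 arrays) and day 7 (4 and 4 arrays), on axes of different range. Filled points are members well above background on at least 50% of the arrays, open points dimmer members and crosses members not tested. At day 0, 29 of 41 points lie left of zero, and at day 7 18 of 35, with *Mmp10* at 2.96 as the point farthest from zero.

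At day 7 the largest difference of any member was that of *Mmp10*. Its log2 signal was 4.38, 9.83, 9.19 and 9.31 on GF *Card9*-/- 2, 2.1, 4 and 6, and 2.97, 5.80, 4.14 and 7.98 on GF WT 1, 4, 5 and 6. Replicates 2.1, 4 and 6 of the first label lay above all arrays of the second, and replicate 2 lay among them. GF WT 1 and 5 did not have it well above background, so no fold is given. The difference of the log2 signals was 2.96 (SE 1.51, adjusted p = 0.913 in limma, exact permutation p = 0.143, where 0.0286 is the smallest p that 4 against 4 arrays allow).

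*Mmp3* and *Mmp13* were highest on the same 3 arrays as *Mmp10*. *Mmp3* was 5.22, 8.75, 9.33 and 9.25 on GF *Card9*-/- 2, 2.1, 4 and 6 and 7.78, 7.25, 6.17 and 8.08 on GF WT 1, 4, 5 and 6. *Mmp13* was 5.06, 8.48, 7.70 and 7.17 against 5.53, 5.33, 5.79 and 6.45. In all 3 genes replicates 2.1, 4 and 6 of the first label were the highest arrays of the day and WT 6 the next. The differences were 0.82 (SE 0.96) for *Mmp3* and 1.33 (SE 0.70) for *Mmp13*, with adjusted p of 0.918 and 0.913 in limma. *Timp1*, their inhibitor, was 7.12, 8.72, 9.47 and 9.37 against 7.73, 8.28, 7.41 and 8.57, a difference of 0.67 (SE 0.55).

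**Figure D4:**
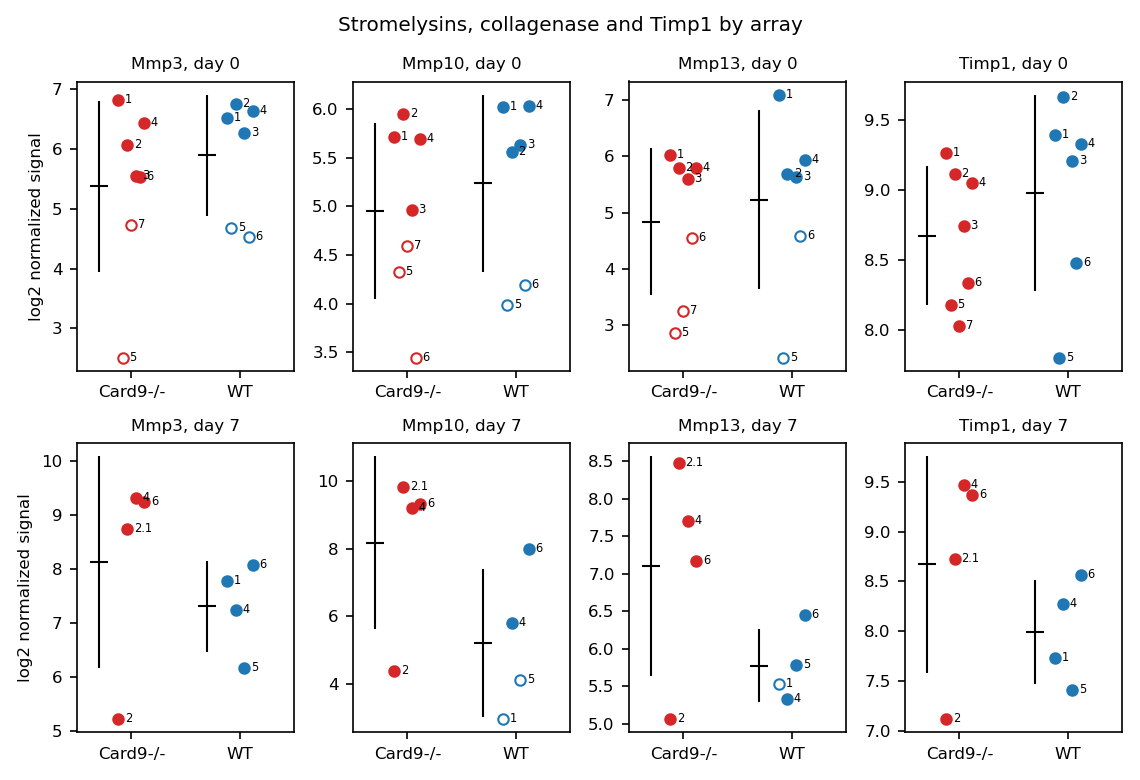
Log2 normalized signal of *Mmp3*, *Mmp10*, *Mmp13* and *Timp1* on each array at day 0 (top) and day 7 (bottom), by label, with replicate numbers beside the points, open points where the probe was not well above background, and black bars for the mean ± SD of a label. At day 7, GF *Card9*-/- 2.1, 4 and 6 lie above the GF WT arrays in all 4 panels and GF *Card9*-/- 2 lies at or near the bottom.

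These differences rest on a few arrays. Without GF *Card9*-/- 2 the *Mmp10* difference was 4.22, the *Mmp3* difference 1.79, the *Mmp13* difference 2.01 and the *Timp1* difference 1.19. *Mmp13* was 0.87 without GF *Card9*-/- 2.1, and *Timp1* 0.41 without GF *Card9*-/- 4. On the slide that holds GF *Card9*-/- 2 and GF WT 6, *Mmp10* was -3.60 (first minus second), and on the slide with GF *Card9*-/- 2.1 and GF WT 4 it was 4.03. With the slide as a fixed block *Mmp10* was 0.21, *Mmp3* turned to -0.68 and *Timp1* to -0.50. Markers of other tissue differed on the same arrays. The pancreas score, of enzymes that colon does not make, was 5.23 on GF *Card9*-/- 2.1 and 9.29 on GF *Card9*-/- 6, and at most -0.31 on the others. The small intestine score was 1.08, 0.44 and 0.08 on GF *Card9*-/- 2.1, 4 and 6 and 0.60 on GF WT 6, the 4 arrays highest in *Mmp10*, *Mmp3* and *Mmp13*, and -1.29 to -0.08 on the other 4. The adipocyte score was 1.58, 0.47, 0.42 and 0.73 on the same 4 arrays and -1.69 to -0.12 on the others. Of these lists 3 of 8 and 7 of 8 genes were well above background on every array, and *Apoa4* and *Lep* on none. The neutrophil score was 0.03 to 0.78 on the arrays labelled GF *Card9*-/- and -0.63 to -0.15 on those labelled GF WT, although *Ngp*, *Ltf* and *Cxcr2* of that list were well above background on no array. Without GF *Card9*-/- 2.1 and 6 the difference was 1.56 for *Mmp10*, 0.60 for *Mmp13* and -0.04 for *Mmp3*. The part of these markers in the members' values was not tested.

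Among the brighter members, those with the largest differences toward lower signal in the arrays labelled GF *Card9*-/- at day 7 were *Adamts15*, *Timp4* and *Mmp11*. *Adamts15*, a versican-cleaving enzyme, was 9.08, 6.75, 8.52 and 8.19 on GF *Card9*-/- 2, 2.1, 4 and 6 and 10.14, 8.19, 11.15 and 8.29 on GF WT 1, 4, 5 and 6, a difference of -1.30 (SE 0.79). Without GF WT 5 it was -0.74. It was 0.80 on the slide of GF *Card9*-/- 2 and GF WT 6 and -1.44 on that of GF *Card9*-/- 2.1 and GF WT 4. *Timp4* was 8.52, 6.93, 6.12 and 6.41 against 9.14, 6.30, 9.58 and 6.88 (difference -0.98, SE 0.88, and -0.44 without GF WT 5). On these slides it was higher under the GF *Card9*-/- label, by 1.64 and 0.63, and with the slide as a fixed block the difference turned to 1.14. On GF *Card9*-/- 2 and on GF WT 1 and 5, both genes were at their highest and *Mmp10* at its lowest, so that the same 3 arrays stood at opposite ends for *Timp4* and *Mmp10*. This pattern was picked after the values were seen. *Mmp11* was 7.89, 6.69, 8.08 and 7.66 against 7.77, 7.93, 9.81 and 7.50 (difference -0.67, SE 0.56), and its difference was -0.15 without GF WT 5 and 0.39 and -1.24 on the slides.

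GF WT 5 was the highest array of the day for *Mmp2* (11.06 against 8.95 to 9.92), *Timp2* (14.71 against 13.28 to 14.35), *Timp3* (13.29 against 11.06 to 12.13) and *Mmp14* (9.18 against 8.43 to 8.76). It also had the highest fibroblast score, 1.06 against -0.66 to 0.35, and the lowest colonocyte score, -0.84 against -0.001 to 0.328. The label differences of these members were small: -0.36 (SE 0.47) for *Mmp2*, -0.15 (SE 0.33) for *Timp2*, -0.36 (SE 0.41) for *Timp3* and -0.14 (SE 0.18) for *Mmp14*. The part of the fibroblast markers was not tested beyond a fit with their score, added after seeing the data, whose changes of sign are given below.

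The aggrecanase *Adamts4* ran from 9.15 to 11.43 on the arrays labelled GF *Card9*-/- and from 9.35 to 10.53 on those labelled GF WT, a difference of 0.33 (SE 0.54). *Adamts1* ran from 7.50 to 9.46 and from 7.33 to 9.46 (difference -0.03, SE 0.60) and *Adamts5* from 4.42 to 5.45 and from 3.79 to 5.85 (difference 0.04, SE 0.45). *Mmp7*, *Mmp9* and *Mmp12* were well above background on no array of day 7 and are given no fold.

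**Figure D5:**
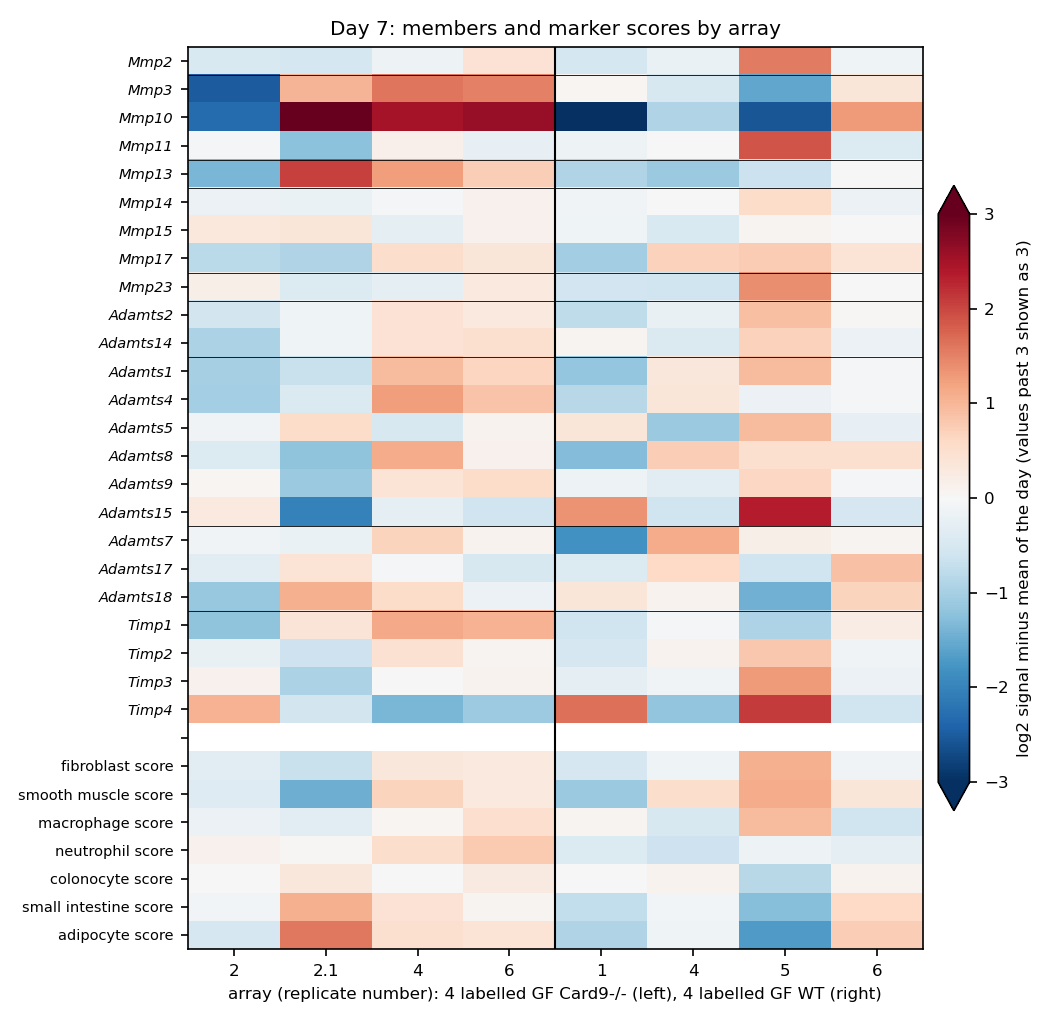
Colour gives the log2 normalized signal of each of the 24 brighter members minus its mean over the 8 arrays of day 7 (values past 3 shown as 3), with members in rows grouped by role, arrays in columns, and 7 marker scores below. *Mmp3*, *Mmp10*, *Mmp13* and *Timp1* are red on GF *Card9*-/- 2.1, 4 and 6, and *Mmp2*, *Mmp11*, *Adamts15* and *Timp3* are red on GF WT 5.

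Over all 35 members tested at day 7, none was called, and none of 44643 probes was (0%), with a lowest adjusted p of 0.913 among members and 0.312 over all probes in limma. With an unadjusted p under 0.05 there was 1 member, *Mmp24*, which was well above background on no array. That is 2.86% of members, against 3.38% of all probes. No member had labels that did not overlap, against 2.13% of all probes. The signs were even, with 18 lower and 17 higher and a median of -0.02, where 49.6% of all probes were lower and 50.4% higher. At least 1.5-fold lower were 4 members (*Adamts15*, *Timp4*, *Mmp11* and the dimmer *Adamts6*), where 6.41% of all probes were, and at least 1.5-fold higher 6 (*Mmp10*, *Mmp13*, *Mmp3*, *Timp1* and the dimmer *Mmp19* and *Mmp7*), where 8.9% were. *Adamts6* and *Mmp7* were well above background on no array and *Mmp19* on 1 of 8, so the fitted differences of these 3 members are no measure of a fold. None had both an unadjusted p under 0.05 and such a fold, where 2.21% of all probes did. Probes on both designs were also tested for a change of the label difference between the days. Of 33 member probes 0 were called, and 0 of all 23633 (0%). The largest change was that of *Mmp10*, from -0.28 to 2.96, a difference of 3.24 (SE 1.36, unadjusted p = 0.028, adjusted p = 0.612 in limma).

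Whether enzymes and inhibitors go together across arrays was asked of 8 pairs per day, with both labels pooled. At day 0 *Mmp2* and *Timp2* had a Pearson r of 0.98 and a Spearman rho of 0.94 over 13 arrays (permutation p = 2e-05, the smallest these resamples allow, adjusted p = 0.00016). Within labels r was 0.985 over 7 and 0.998 over 6 arrays, within the scan sessions 0.989 and 0.978, and 0.966 without the 2 arrays farthest from the median. *Mmp13* with *Timp1* had r = 0.91 and rho = 0.87 (adjusted permutation p = 0.00024 and 0.00056). *Mmp3* had r = 0.81 with *Timp1* (rho = 0.88), 0.84 with *Mmp13* (rho = 0.87) and 0.71 with *Mmp10* (rho = 0.76), and *Mmp10* had r = 0.86 with *Timp1* (rho = 0.79), with adjusted permutation p-values of 0.0014, 0.0014, 0.012 and 0.0014 for r. Within labels the r of these last 4 pairs lay between 0.56 and 0.96, and within sessions between 0.65 and 0.99. *Mmp3*, *Mmp10* and *Mmp13* were well above background on 9, 8 and 8 of these 13 arrays, so their r includes signals near background. The arrays also share the stromal pattern described above.

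At day 7, over 8 arrays, *Mmp3* with *Timp1* had r = 0.94 and rho = 0.98 (exact adjusted permutation p = 0.0044 and 0.0032). *Mmp10* with *Timp1*, *Mmp3* with *Mmp13*, *Mmp13* with *Timp1* and *Mmp3* with *Mmp10* had r of 0.89, 0.80, 0.78 and 0.78, and *Mmp2* with *Timp2* 0.82, with exact adjusted permutation p-values of 0.0237, 0.0237, 0.0358, 0.0358 and 0.0291. Their rho were 0.81, 0.86, 0.83, 0.74 and 0.81, of which that of *Mmp3* with *Mmp10* had an exact adjusted permutation p of 0.061. Without the 2 arrays farthest from the median on the first gene, r stayed between 0.77 and 0.97 in these 6 pairs, and over the 6 arrays left all exact adjusted permutation p-values were 0.067 or higher. In 4 of these 6 pairs r was higher without the 2 arrays than with them, so the calls were lost with fewer arrays and not with a smaller r in those pairs. With the label means removed, r over the 8 arrays was 0.73 to 0.94 in these 6 pairs, with exact adjusted permutation p-values of 0.14 to 0.40 when arrays were permuted within labels.

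*Mmp9* with the neutrophil score had r = 0.64 and rho = 0.62 at day 0 (adjusted permutation p = 0.021 and 0.030), and r = 0.56 without the 2 farthest arrays (adjusted permutation p = 0.082), in a gene well above background on 2 of 13 arrays. At day 7 r was 0.36 (exact adjusted permutation p = 0.45), and 0.80 without the 2 farthest arrays, GF *Card9*-/- 4 and 6 (exact adjusted permutation p = 0.074), with *Mmp9* well above background on no array. *Mmp12* with the macrophage score had r = 0.26 at day 0 and 0.10 at day 7 (adjusted permutation p = 0.39 and exact 0.82).

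The wider system of pericellular proteolysis was read from a list of 33 other genes (plasminogen activators and their inhibitors, ADAM sheddases, cathepsins, meprins and matrix substrates). At day 0, 23 of 32 tested were lower in the arrays labelled GF *Card9*-/- and 9 higher, 0 called, with a median of -0.10. At day 7, 12 were lower and 20 higher, 0 called, with a median of 0.17. Labels that did not overlap were seen for 3 of 32 at day 7 and for none at day 0. *Adam8*, a leukocyte sheddase, was 8.14 to 8.94 on the arrays labelled GF *Card9*-/- and 7.44 to 7.94 on those labelled GF WT. *Ctss*, the cathepsin of antigen-presenting cells, was 15.54 to 15.79 against 14.91 to 15.41. *Adamtsl5*, an ADAMTS-like protein without protease activity, was 7.49 to 8.08 against 6.76 to 7.46. All 3 were higher in the arrays labelled GF *Card9*-/-, with adjusted p = 0.913 in limma, and 2.13% of all probes did not overlap at that day. At day 0 the difference of *Adamtsl5* had the opposite sign, -0.56 (SE 0.14, adjusted p = 0.324 in limma).

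The remaining marker lists give the makeup of the samples. Of the colonocyte markers 7 of 8 were well above background on every array at day 0 and 7 of 7 at day 7, as the colon label asks. Differences over the list had a median of 0.08 and 0.37 for colonocytes, -0.31 and 1.005 for small intestine, 1.53 and 5.79 for pancreas, -0.74 and -0.14 for fibroblasts, -0.46 and -0.41 for smooth muscle, 0.32 and 0.17 for neutrophils, -0.45 and 0.01 for macrophages, -0.21 and 1.23 for adipocytes and 0.91 and 0.41 for mesothelium, at day 0 and day 7 (log2), with 0 genes called in any of them. At day 0 the pancreas score was 11.95 on GF *Card9*-/- 7 and at most 0.04 on the other 12 arrays.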

How the data were processed

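Total colon RNA (RIN over 9 per the labels) was hybridized to single-colour Agilent arrays, 13 at day 0 on 4 slides and 8 at day 7 on 6 slides. The deposited files hold, per spot, the processed signal as a fluorescence intensity (background-subtracted by Agilent Feature Extraction 10.7.3.1), the mean and background intensity, the p-value against background and flags, with positions on NCBI37. The authors also deposited a table of log2 values normalized between arrays (agilp and quantile normalization), used here as an alternative. Its signal column was not given in the sources used here.

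Here control spots and outlier flags were left out, spots of a probe were averaged, and log2 processed signals were quantile normalized within each day. Probes with a detection p under 0.05 on at least 60% of the arrays of a label were tested with limma 3.58.1 (R 4.3.3, data.table package 1.17.8, statmod 1.5.0) by lmFit and eBayes, with Benjamini-Hochberg adjustment over all probes tested (47410 at day 0, 44643 at day 7) and a call at an adjusted p under 0.05. A positive log2 difference means a higher signal under the GF *Card9*-/- label. The script was tested on simulated data. Accessions of 64 of 88 member probes at day 0 and 56 of 63 at day 7 matched a RefSeq gene. The marker and pericellular lists held 8 genes each and 33 genes. The lists were colonocyte, small intestine, pancreas, fibroblast, smooth muscle, neutrophil, macrophage, adipocyte, mesothelium and pericellular proteolysis. A score is the mean deviation of a list's tested genes from their mean over the day. Exact and permutation tests were two-sided (100000 resamples at day 0) and used Python 3.11.15, scipy 1.17.1, numpy 2.4.6, pandas 2.3.3 and matplotlib 3.10.9.

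The members and lists were chosen with earlier results of these data known, and matching gene names outside the 44 members are not reported here. Named in full were members called at either day, 14 members picked for their roles, the 3 brighter members with the largest difference in each direction at each day, and members whose labels did not overlap. The SD of the log2 difference between GF *Card9*-/- 2 and 2.1 was 0.852, near the median of 0.901 over pairs with 1 label. It cannot show whether they are separate mice, since 2 pieces of 1 colon could also differ. They were counted as 2 samples. Where separate animals are not stated, p-values measure only the spread between these samples. Alternatives changed the scaling, background correction, filters, outlier spots, the probe of a gene, blocks for slide, session or replicate number, and the arrays included. The fibroblast score as a covariate, and leaving out GF WT 6 and GF *Card9*-/- 7 together at day 0, were added after seeing the data, as were the relations with label means removed and the arrays of shared numbers without a block.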

Additional observations from a re-analysis of the deposited data

Results flagged for a closer look

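In groups of 4 to 7 arrays, 1 array stood apart from the others of its label in 11 of 114 groups tested, where chance gives about 1 in 20. At day 0 GF *Card9*-/- 5 had an *Adamts5* signal of 2.51 (log2, others 4.66 to 5.69) and an adipocyte score of -4.69 (others 0.0081 to 2.20), and GF WT 5 an *Adamts12* signal of 3.29 (others 5.84 to 6.67). GF *Card9*-/- 7 had a pancreas score of 11.95 (others -1.48 to -0.61). GF WT 6 had a colonocyte score of -1.44 (others -0.04 to 0.34) and a small intestine score of 2.03 (others -0.71 to 0.21). At day 7 GF *Card9*-/- 2 had an *Mmp10* signal of 4.38 (others 9.19 to 9.83) and an *Mmp3* signal of 5.22 (others 8.75 to 9.33). *Timp3* stood at 11.06 on GF *Card9*-/- 2.1 (others 12.01 to 12.13) and at 13.29 on GF WT 5 (others 11.72 to 11.90), and the latter array had a colonocyte score of -0.84 (others 5.2e-05 to 0.11).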

How the results depend on the processing

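No member was called under any alternative run, at either day or for the difference between the days. The number of probes called at day 0 was 27 with normexp, 22 with the authors' table, 22 with the filter on well above background, 555 at an unadjusted p under 0.05 with a 1.5-fold change, and 8 to 16 without 1 array or slide; at day 7 it was 987 under that last rule, 2 without GF *Card9*-/- 2.1 and 6, and 0 to 1 without 1 array, and for the difference between the days 0 to 2. The member median without 1 array was -0.53 to -0.18 at day 0 and -0.15 to 0.10 at day 7. Replicate numbers were not taken as pairs, since the labels state no pairing and not every same-number correlation was over 0.1. Same-number deviations correlated at 0.30, 0.29, 0.06, -0.01, 0.37 and -0.02 at day 0 (4 of 12 arrays correlated best with their own number) and at 0.11 and 0.03 at day 7, where 4 of 4 arrays with a shared number correlated best with their own number. The fit with the replicate number as a block holds only arrays of shared numbers, without GF *Card9*-/- 7 at day 0, and with GF *Card9*-/- 4 and 6 and GF WT 4 and 6 alone at day 7. There 7 probes were called at day 0 and 0 at day 7, the member medians were -0.26 and 0.17, *Mmp12* at day 0 was 0.026, and at day 7 *Adamts1* was 0.67, *Adamts15* 0.12, *Mmp11* 0.16, *Mmp14* 0.14, *Mmp2* 0.30, *Mmp7* -0.47, *Timp2* 0.27 and *Timp3* 0.19. The same arrays fitted with no block, an alternative chosen after seeing the data, called 11 and 0 probes. The differences and medians were the same by construction, since each number has 1 array of each label. They moved with the arrays left out.

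Other changes of sign, none of them in a called value, were these at day 0. By the 75th percentile *Adamts1* was -0.0196 and *Mmp14* -0.00885, *Mmp12* was 0.12 with dim values raised and 0.0754 over all its probes, and without GF WT 6 and GF *Card9*-/- 7 *Adamts1* was -0.0136 and *Mmp14* -0.0868. With the fibroblast score *Adamts15* was -0.0097, *Adamts4* 0.18, *Mmp10* 0.20, *Mmp13* 0.45, *Mmp3* 0.22, *Timp1* 0.0415, *Timp2* 0.0612 and *Timp3* 0.12. Without 1 array or slide, *Adamts1* ran from -0.25 to 0.30, *Adamts15* from -0.0447 to 0.43, *Mmp12* from -0.21 to 0.10, *Mmp14* from -0.10 to 0.12, *Mmp7* from -0.0477 to 0.85 and *Timp4* from -0.48 to 0.47. At day 7 the 75th percentile gave *Mmp12* -0.33 and *Mmp9* -0.30, normexp *Adamts5* -0.00098, the slide as a fixed block *Adamts4* -0.89, *Mmp3* -0.68, *Timp1* -0.50 and *Timp4* 1.14, the fibroblast score *Adamts1* 0.20 and *Mmp12* -0.0127, and the mean of its probes *Mmp12* -0.20. Without GF *Card9*-/- 2.1 and 6 *Adamts5* was -0.27, *Mmp3* -0.0424, *Mmp9* -0.0658 and *Timp2* 0.0403, and without GF *Card9*-/- 2.1 alone *Adamts5* was -0.139, *Mmp12* -0.131 and *Timp2* 0.0261. Without 1 array *Adamts1* ran from -0.42 to 0.30, *Adamts4* from -0.032 to 0.73, *Adamts5* from -0.33 to 0.36, *Mmp12* from -0.15 to 0.22, *Mmp14* from -0.22 to 0.0266, *Mmp2* from -0.59 to 0.10, *Mmp9* from -0.0218 to 0.17, *Timp2* from -0.35 to 0.0936 and *Timp3* from -0.52 to 0.0055. *Mmp10* at day 7 kept its sign, between 0.21 with the slide as a fixed block and 4.22 without GF *Card9*-/- 2. Without the 2 farthest arrays, r of *Mmp9* with the neutrophil score was 0.56 at day 0 and 0.80 at day 7. At day 7 r was 0.77 for *Mmp3* with *Mmp10*, 0.83 with *Mmp13* and 0.88 with *Timp1*, 0.97 for *Mmp10* and 0.86 for *Mmp13* with *Timp1*, 0.85 for *Mmp2* with *Timp2* and -0.35 for *Mmp12* with the macrophage score. With the label means removed the day 7 values were 0.78, 0.81 and 0.94 for *Mmp3* with *Mmp10*, *Mmp13* and *Timp1*, 0.87 and 0.73 for *Mmp10* and *Mmp13* with *Timp1*, and 0.82 for *Mmp2* with *Timp2*, none with an exact adjusted permutation p under 0.05. The cause was not tested. Signal over background limits *Mmp7*, *Mmp9* and *Mmp12* at day 7 and *Mmp12* at day 0, which were well above background on no array. Their values above are differences between signals at background, so neither their size nor their sign is a measure of a change.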

Other observations

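Several members have more than 1 tested probe, and their probes did not always give the same sign: at day 0 the label difference changed sign between probes in 8 of 21 such members, and at day 7 in 6 of 13. *Mmp7* was not among them at day 0, with differences of 0.25 (SE 0.52) and 0.35 (SE 0.53) on its 2 probes.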
